A study of Mus musculus with 6 samples.

Results

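Genes of B cells and of the antibody-secreting plasma cells that descend from them were described in colonic epithelium with and without miR-31, together with the gene of the receptor that carries their antibodies through the epithelium. The group holds 8 genes: Cd79a, Cd79b, Blk, Pou2af1, Jchain, Mzb1, Derl3 and Pigr. A probe belonged to it when its RefSeq transcript accession matched one of these symbols, which gave 9 probes, 2 of them for Pigr. All 8 genes were among the 27916 features tested, of which 15251 carry a gene symbol. The animals were all male, 3 of them miR-31 knockout and 3 wild-type, and RNA from the flow-separated colonic epithelium of each was hybridised to 1 one-colour Agilent array. The strain, the age, the tissue reach of the knockout and the gate of the flow separation are not given in the sources used here. Nothing in the labels names cells, litters or days shared between arrays, and p-values measure the spread between these 6 animals. No probe measured Mir31 itself, so the deletion was not checked here, and probes of antibody heavy and light chain genes were not analysed here.

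B cells recognise antigen through a membrane-bound antibody whose signal passes into the cell through CD79A and CD79B. In the gut, activated B cells become plasma cells that reside under the epithelium and secrete dimeric IgA joined by the J chain. The polymeric immunoglobulin receptor, made by epithelial cells from Pigr, binds the J chain-containing antibody at the base of the cell, carries it across and releases it into the lumen. In bulk tissue such as this, fewer cells of a type and less RNA per cell cannot be told apart.

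The genotypes differ in miR-31, whose mature strands are shown because they are what the knockout lacks. The sequences are from RefSeq (assembly GRCm38.p6, chromosome 4, minus strand), and capitals mark the seed, bases 2 to 8.
mmu-miR-31-5p: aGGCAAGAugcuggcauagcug
mmu-miR-31-3p: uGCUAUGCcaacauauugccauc

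The stretches of 250 bases before the annotated start of 4 genes are shown as well, for Jchain, Pou2af1 and Derl3, whose differences were positive, and for the transporter, since transcription factors of B cells and of the secretory stress response read such letters. RefSeq entries of the same assembly were used for 5 of the 8 genes, and capitals mark motif matches. Mzb1, Blk and Cd79b were left out of the search, so the motif counts do not cover them.
Jchain (chr5:88527898-88528147, minus strand): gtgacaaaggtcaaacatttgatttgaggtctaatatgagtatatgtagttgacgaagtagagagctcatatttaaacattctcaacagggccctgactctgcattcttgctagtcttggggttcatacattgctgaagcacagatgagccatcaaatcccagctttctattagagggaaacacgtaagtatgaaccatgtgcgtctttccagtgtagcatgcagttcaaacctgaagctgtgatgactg
Pou2af1 (chr9:51213440-51213689, plus strand): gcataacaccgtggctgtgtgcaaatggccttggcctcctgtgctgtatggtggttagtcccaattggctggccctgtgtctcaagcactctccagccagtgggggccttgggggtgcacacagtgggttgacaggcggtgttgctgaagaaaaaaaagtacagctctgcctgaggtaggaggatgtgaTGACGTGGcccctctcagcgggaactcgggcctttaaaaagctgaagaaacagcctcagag
Derl3 (chr10:75893148-75893397, plus strand): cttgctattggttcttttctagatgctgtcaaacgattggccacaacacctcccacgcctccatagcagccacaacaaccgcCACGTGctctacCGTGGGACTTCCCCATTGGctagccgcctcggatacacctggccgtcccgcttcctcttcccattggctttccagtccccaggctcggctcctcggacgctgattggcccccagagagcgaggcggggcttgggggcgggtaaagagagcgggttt
Pigr (chr1:130826434-130826683, plus strand): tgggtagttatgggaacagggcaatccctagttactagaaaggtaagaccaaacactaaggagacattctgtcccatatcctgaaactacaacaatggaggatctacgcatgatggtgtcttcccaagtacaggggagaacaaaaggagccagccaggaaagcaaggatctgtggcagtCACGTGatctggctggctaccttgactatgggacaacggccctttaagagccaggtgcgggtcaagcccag
Both strands of the 5 stretches, that of Cd79a included, were searched for 6 motifs. The E-box CACGTG, read by basic helix-loop-helix factors such as USF1 and USF2, was matched in Pigr from base -71 to -66 and in Derl3 from -168 to -163, and was present in 6.02% of 32851 promoters of this length. The endoplasmic reticulum stress response element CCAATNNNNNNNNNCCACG was matched on the minus strand of Derl3 from -156 to -138, without overlap with the E-box there, and was present in 0.113% of promoters. The unfolded protein response element TGACGTGG was matched in Pou2af1 from -61 to -54 and was present in 0.563%. The octamer ATGCAAAT, through which the product of Pou2af1 acts with its partner factors, was in 0 of the 5 stretches and in 1.6% of promoters. The kappa B letters GGGANTTTCC and the EBF letters TCCCNNGGGA were also in 0 of the 5, and in 0.356% and 0.779% of promoters. Each motif was searched only as the letters given, so other forms of a site, those of kappa B included, were not looked for. These matches describe the letters and say nothing of binding.

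Arrays differed modestly in brightness, with a 75th percentile of 3005 to 3539 intensity units and 66.6% to 75.6% of probes well above background. Levels below are scaled intensities: each array was brought to the same 75th percentile, and the value is in intensity units. They compare arrays for 1 probe and not 1 gene with another. Wild-type arrays all lay in row 2 of the slide and knockout arrays all in row 1, so that row and genotype cannot be told apart. Wild-type replicate 3 was alone in slide column 4 and knockout replicate 3 alone in column 3. A fit with slide column as a block therefore takes its genotype difference from columns 1 and 2 only. Its value and the differences within those columns are not separate results.

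None of the 8 genes changed at an adjusted p under 0.05 (limma), a threshold that 0.208% of all features passed. At an unadjusted p under 0.05, 3 of the 8, Jchain, Blk and Pou2af1, were higher in knockout epithelium, against 3.18% of all features. The same 3 genes had every knockout array above every wild-type array, against 5.56% of all features, and 0 of the 8 lay wholly below, against 12.5%. The log2 change, knockout over wild-type, was positive for 7 of the 8 with a median of 0.31, where the median of all features was -0.06. Under normexp background correction 6 were positive and the median was 0.20.

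**Figure D1:**
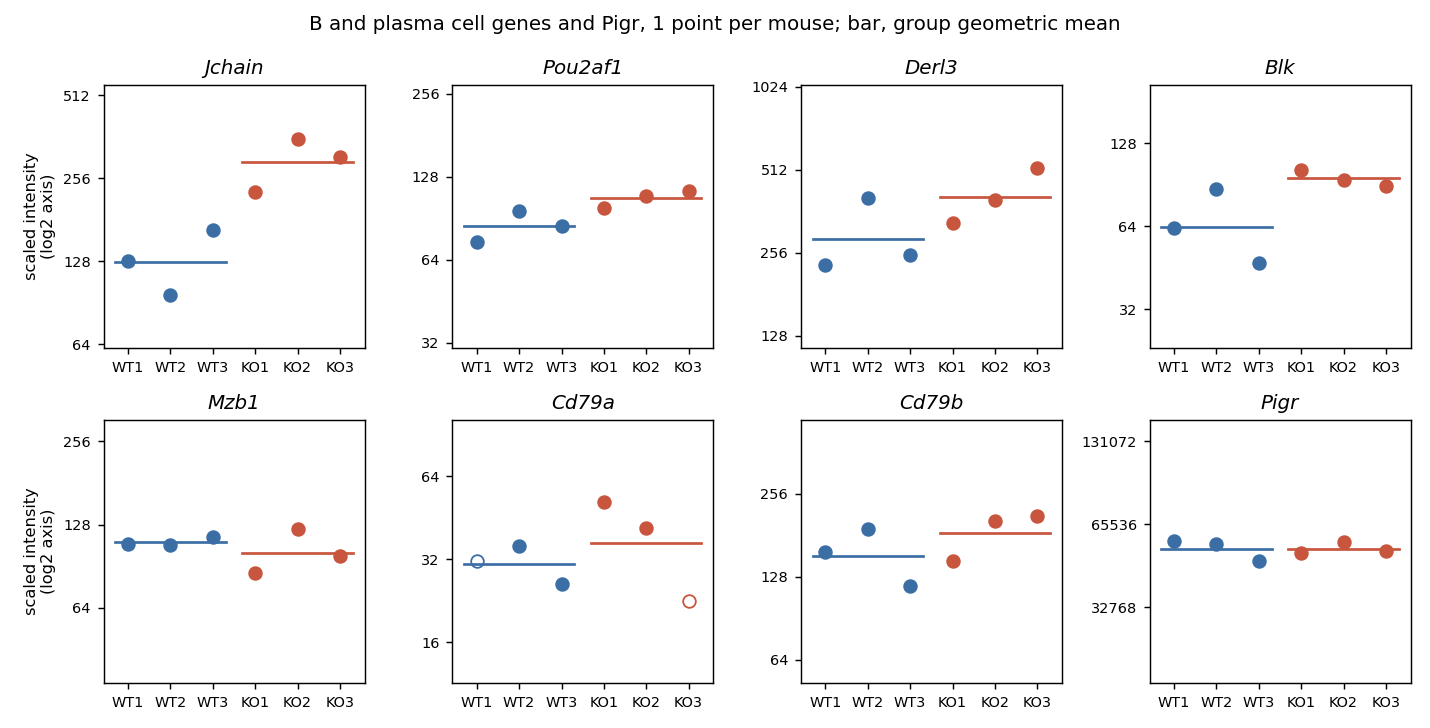
Scaled intensity (log2 axis of the same span in each panel) of the tested probe of each gene on the 6 arrays; points are mice, wild-type (WT) in blue and knockout (KO) in red, bars are group geometric means, and open points were not well above background. Jchain, Pou2af1 and Blk show no overlap between groups, and the other 5 genes overlap.

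Jchain, which encodes the chain that joins IgA and IgM into polymers, had the largest difference of the group. Its scaled intensity was 128, 97.0 and 166 in wild-type mice and 228, 357 and 306 in knockout mice. The lowest knockout value lay above the highest wild-type value. The log2 change was 1.20 ± 0.24 (SE, n = 3 and 3), with a 95% confidence interval of 0.62 to 1.78 and a fold of 2.30. It did not pass the adjusted threshold (limma, adjusted p = 0.191, unadjusted p = 0.00176). Under normexp background correction the log2 change was 0.73. Within slide columns 1 and 2, the columns that hold both genotypes, Jchain was higher in the knockout array by a log2 difference of 0.83 and 1.88. All its values stood 3.44 to 10.6 times above the lowest signal called well above background on the same array.

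Mzb1 and Derl3 encode proteins of the endoplasmic reticulum of antibody-secreting cells, and for both the genotypes overlapped. Mzb1, a chaperone of antibody assembly, gave 109, 108 and 115 in wild-type and 85.2, 123 and 98.8 in knockout mice. The narrow wild-type range lay inside the knockout range, and the log2 change was -0.13 ± 0.16 (SE), with a 95% confidence interval of -0.50 to 0.24. The Mzb1 value became -0.0054 without knockout replicate 1, -0.27 without knockout replicate 2 and -0.016 under normexp background correction. Derl3, a component of the machinery that draws misfolded proteins out of the reticulum, gave 230, 403 and 251 in wild-type and 326, 396 and 520 in knockout mice. Wild-type replicate 2 lay above 2 of the knockout arrays. Its log2 change of 0.51 ± 0.26 (limma, adjusted p = 0.541) became 0.76 without wild-type replicate 2, 0.33 without knockout replicate 3 and 0.24 with slide column as a block.

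Pou2af1 encodes a coactivator that B cells need to form germinal centres. Its scaled intensity was 74.2, 96.1 and 84.8 in wild-type mice and 98.4, 109 and 114 in knockout mice. The groups did not overlap, but wild-type replicate 2 and knockout replicate 1 lay close together. The log2 change was 0.34 ± 0.14 (SE; limma, unadjusted p = 0.0469, adjusted p = 0.457). With slide column as a block it was 0.30 (limma, unadjusted p = 0.150). Within slide columns 1 and 2 the knockout array was higher by 0.41 and 0.18. Pou2af1 values stood 1.99 to 4.13 times above the lowest signal called well above background on the same array.

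Among the genes of the B cell receptor, Blk, a Src-family kinase that acts just below the receptor, had the largest difference. It gave 62.9, 87.6 and 47.1 in wild-type and 102, 94.5 and 89.7 in knockout mice. The knockout arrays lay within a narrow range just above the highest wild-type array, while the wild-type arrays were spread widely. The log2 change was 0.58 ± 0.23 (SE; limma, unadjusted p = 0.037, adjusted p = 0.431). It was 0.30 under normexp background correction and 0.36 without wild-type replicate 3. With slide column as a block it was 0.41 (limma, unadjusted p = 0.110). Within slide columns 1 and 2 the knockout array was higher by 0.70 and 0.11. Blk values stood 1.69 to 3.76 times above the lowest signal called well above background on the same array.

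Cd79b and Cd79a, the signalling chains of the receptor, overlapped between genotypes. Cd79b gave 157, 190 and 118 in wild-type and 146, 204 and 211 in knockout mice, a log2 change of 0.28 ± 0.22 (limma, adjusted p = 0.699). It was 0.10 without wild-type replicate 3, 0.45 without knockout replicate 1, 0.14 under normexp background correction and 0.00 with slide column as a block. Cd79a gave 31.5, 35.7 and 26.0 in wild-type and 51.6, 41.6 and 22.6 in knockout mice. Its probe was well above background on 2 of 3 arrays in each genotype, at 0.72 to 1.54 times the lowest signal so called. Its log2 change was 0.24 ± 0.31 (SE; limma, adjusted p = 0.822). With knockout replicate 1 left out the Cd79a value became -0.01, and with knockout replicate 3 left out 0.59.

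**Figure D2:**
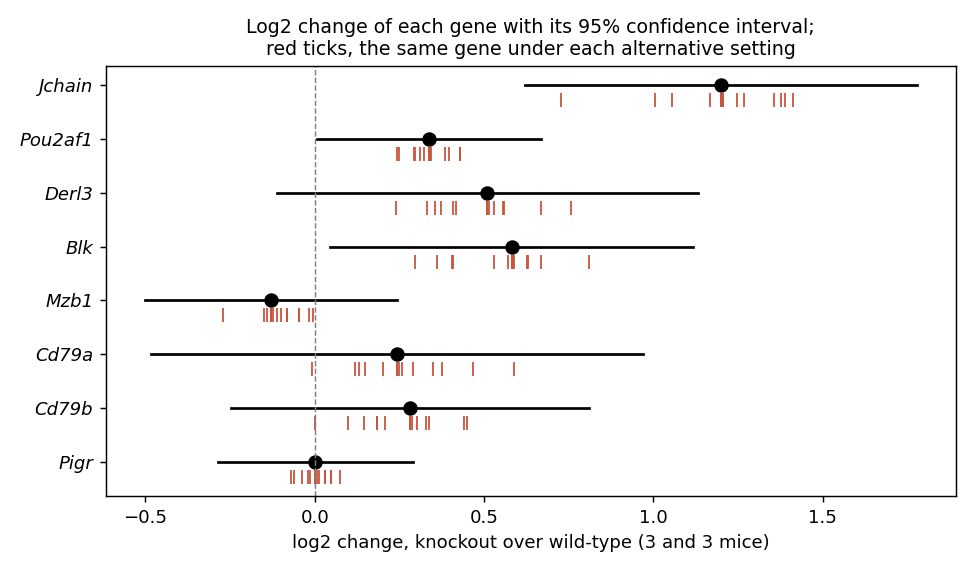
Log2 change, knockout over wild-type, of each of the 8 genes (black point, 3 and 3 mice) with its 95% confidence interval (line); red ticks are the values of the tested gene under each alternative setting, 1 array left out included. Jchain, at 1.20, lies farthest from 0, and Pigr lies at 0.00.

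Pigr, the epithelial receptor for these antibodies, was among the brightest probes, above 99.6% of probes on 5 of the 6 arrays. Its tested probe gave 56738, 55283 and 48072 in wild-type and 51292, 56205 and 52521 in knockout mice, and the groups overlapped. The log2 change was 0.00 ± 0.12 (SE), with a 95% confidence interval of -0.29 to 0.29 (limma, adjusted p = 0.996). The second Pigr probe was marked by the extraction software on 4 of the 6 arrays and was not tested. With marked spots kept it gave 46380, 44332 and 42969 in wild-type and 36317, 33780 and 39833 in knockout mice. Every knockout value of this probe lay below every wild-type value, and its log2 change was -0.28 ± 0.12 (limma, unadjusted p = 0.053, adjusted p = 0.502). The 2 probes of Pigr thus gave different values.

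Genes outside the group of 8 that mark the same cells were read from a list of other B cell genes, of which 24 of 30 were tested. Of these, 0 changed, 12 were positive and 12 negative, and the median log2 change was -0.01. That median was -0.16 without wild-type replicate 3, with 8 positive, and 0.05 without knockout replicate 1, with 14. Pax5, which holds cells in the B lineage, gave -0.14 ± 0.13 (SE; limma, adjusted p = 0.76). Ms4a1, the gene of CD20, gave 37.0, 91.2 and 27.5 in wild-type and 58.5, 135 and 72.9 in knockout mice. Replicate 2 was the brightest of each genotype for Ms4a1, and both of those arrays lay in slide column 2. Its log2 change was 0.88 ± 0.49. Bcl11a, a transcription factor of early lymphoid cells, gave 0.54 ± 0.21, with every knockout array above every wild-type array, while Cd22, an inhibitory receptor of B cells, and H2-Ob, which tempers antigen loading in B cells, gave -0.21 ± 0.12 and -0.28 ± 0.12, with every knockout array below every wild-type array for both. Ebf1, Fcrla and Fcrl1 were well above background on 0 of 6 arrays.

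Of the other plasma cell genes 20 of 27 were tested, 0 changed, 10 were positive and 10 negative, and the median log2 change was 0.00, between -0.08 and 0.09 over the alternatives. The defining genes lay near 0: Prdm1, the master repressor of the plasma cell programme, gave -0.04 ± 0.27, Tnfrsf17, the BCMA receptor, gave -0.10 ± 0.24, and Sdc1, the gene of CD138, gave 0.06 ± 0.13 (SE, n = 2 and 3). Prdm1 and Sdc1 are also made by epithelial cells. Ccr9, a gut-homing receptor, gave 212, 194 and 239 in wild-type and 302, 292 and 343 in knockout mice, a log2 change of 0.54 ± 0.13 without overlap (limma, unadjusted p = 0.00504, adjusted p = 0.258). Irf4, which drives plasma cell differentiation, gave 0.46 ± 0.21 without overlap, and Cxcr4, a receptor for CXCL12, gave 0.71 ± 0.37.

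**Figure D3:**
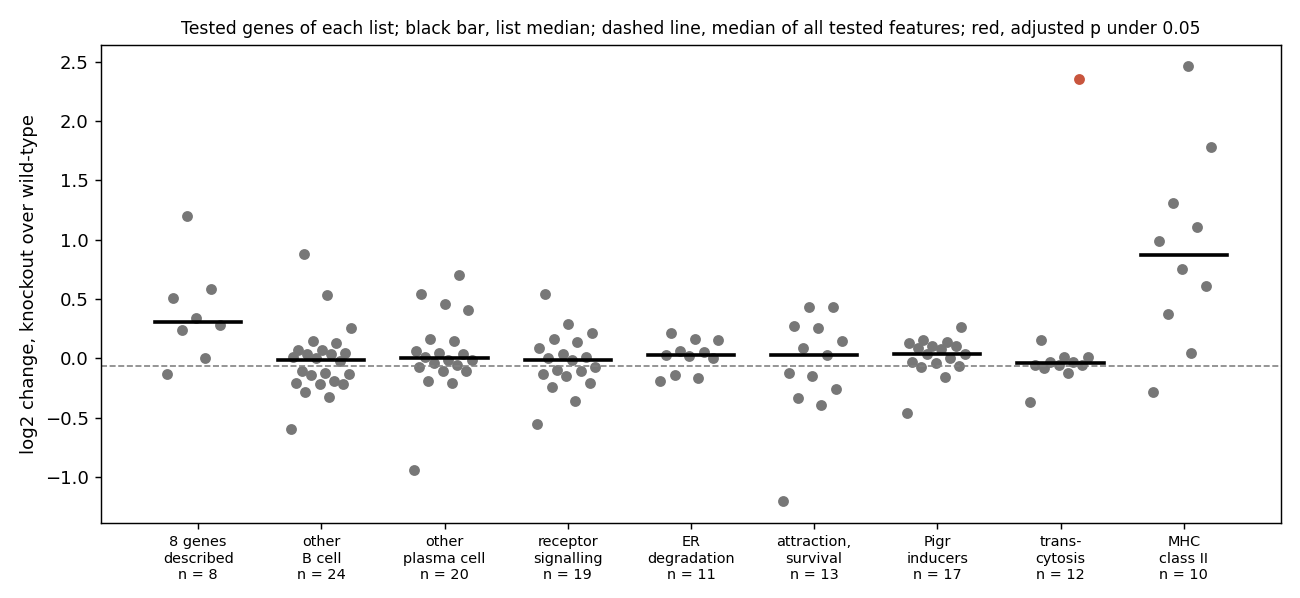
Log2 change, knockout over wild-type, of every tested gene (points, spread sideways for visibility) of the 8 genes described and of 8 lists around them, with each list's median (bar) and the median of all features (dashed line). Rab3b, in red, is the point that passed the adjusted threshold, and the other B cell and plasma cell lists centre near 0.

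Genes that carry the receptor's signal onward numbered 19 tested of 22, with 0 changed, 9 positive, 10 negative and a median log2 change of -0.01. Dapp1, an adaptor recruited to the membrane after receptor engagement, gave -0.55 ± 0.13 (SE, n = 2 and 3) without overlap (limma, adjusted p = 0.262). Prkcb, a protein kinase C activated by the receptor, gave 0.54 ± 0.33. Of the genes that work with Derl3 in degradation at the reticulum, 11 of 17 were tested and 0 changed, with a median of 0.03. Syvn1, the ubiquitin ligase of this machinery, gave 0.16 ± 0.12, Os9, a lectin that selects its substrates, -0.19 ± 0.15 (SE, n = 3 and 2) with both knockout values below the wild-type ones, and Edem3 and Atf6 0.15 ± 0.17 and 0.21 ± 0.17.

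Genes that attract or sustain antibody-secreting cells numbered 13 tested of 19, 0 of which changed, with a median log2 change of 0.03. The median was -0.14 without knockout replicate 3, with 3 of 13 positive, and -0.16 with slide column as a block, with 4 of 11 positive. Tgfb2, a ligand of the TGF-beta family that favours IgA switching, gave 45.2, 32.0 and 84.6 in wild-type and 20.9, 20.7 and 23.3 in knockout mice. It was well above background on 3 of 3 wild-type and 0 of 3 knockout arrays. The lowest signal so called was 37.3, 23.3 and 23.3 on wild-type and 46.8, 33.7 and 31.5 on knockout arrays. Wild-type replicate 2 would thus not exceed it on knockout replicates 1 and 2. The group geometric mean was at least 1.35-fold lower in knockout mice (limma, adjusted p = 0.298). For such a bound each dim array counts at its own signal or at the lowest signal well above background there, whichever is higher. Tnfsf13b, the survival factor BAFF, gave -0.34 ± 0.26 (SE, n = 2 and 3), Vcam1, an adhesion molecule for integrin-bearing lymphocytes, 0.28 ± 0.16, and Cxcl12, the ligand of CXCR4, -0.26 ± 0.16. Il5, Il6 and Il10, cytokines that support plasma cells, were well above background on 0 of 6 arrays.

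On the epithelial side, 17 of 21 reported inducers and transcription factors of Pigr were tested and 0 changed, with 11 positive, 6 negative and a median log2 change of 0.04. Ifng gave -0.46 ± 0.28, Il17rc, a subunit of the interleukin 17 receptor, -0.16 ± 0.11 with every knockout array below every wild-type array, Il4ra 0.14 ± 0.12 and Nfkb1 0.16 ± 0.17 (SE, n = 2 and 2 for Nfkb1). Of the genes of Pigr transcytosis, 12 of 15 were tested, with a median of -0.04. Rab3b, a GTPase that binds the receptor in its vesicles, rose from 1202, 1024 and 923 in wild-type to 4462, 4451 and 7600 in knockout mice, by a log2 change of 2.35 ± 0.24 (limma, adjusted p = 0.0166). Rab3b lost this call without the filter on dim probes (adjusted p = 0.0551) and when wild-type replicate 1, 2 or 3 or knockout replicate 2 was left out (adjusted p = 0.0834, 0.106, 0.0691 and 0.0598). Rab11fip5, a partner of the recycling endosome GTPase Rab11, gave -0.36 ± 0.15 without overlap (limma, adjusted p = 0.459).

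Other cells of the mucosa were read beside these genes. Averaged over the 7 B and plasma cell genes without Pigr, the log2 level centred between groups was -0.28, -0.04 and -0.33 in wild-type and 0.11, 0.34 and 0.20 in knockout mice. These genes were chosen with earlier results of these data known, so the gap in their mean is only a description. Jchain had the largest difference among them, and the mean without Jchain was not computed. Derl3, Mzb1 and Cd79b were higher in wild-type replicate 2 than in knockout replicate 1, and Jchain, Blk, Pou2af1 and Cd79a were lower. All 15 pan-leucocyte genes were tested, 0 changed, and their centred level was 0.00, -0.29 and 0.11 in wild-type and -0.28, 0.10 and 0.35 in knockout mice, with overlap. The 18 T cell genes gave -0.33 to 0.22 in wild-type and -0.35 to 0.39 in knockout mice, and Cd3e gave a log2 change of 0.20 ± 0.22. The 10 tested MHC class II genes, which B cells, dendritic cells and stimulated epithelium express, had a median log2 change of 0.87, with 9 positive and 0 changed at the adjusted threshold. Their centred level was -1.05 to 0.19 in wild-type and 0.09 to 0.60 in knockout mice, so wild-type replicate 3 lay inside the knockout range. Wild-type replicate 3 was also the wild-type array with the most Jchain, but it had the least Blk and Cd79b. The part of MHC class II-bearing or other leucocytes in the differences of Jchain and Blk was not tested.

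Ciita, the transactivator of class II genes, gave a log2 change of 0.99 ± 0.29, Cd74, the invariant chain, 1.78 ± 0.54, H2-Aa 2.46 ± 0.81 (SE, n = 3 and 2) and H2-Eb1 1.31 ± 0.52. None of these 4 passed the adjusted threshold (limma, lowest adjusted p = 0.325). Of 8 tested macrophage genes 2 were positive, and 0 changed. The complement gene C1qa gave 0.78 ± 0.30 with overlap, while C1qb gave -0.53 ± 0.13 and C1qc -1.15 ± 0.44, both with every knockout array below every wild-type array. C1qc was well above background on 3 wild-type arrays and 1 knockout array. Mrc1, the mannose receptor, gave -0.68 ± 0.30, and Csf1r gave -0.01 ± 0.12. Ptprc, the pan-leucocyte phosphatase CD45, gave -0.09 ± 0.22 (SE, n = 2 and 3). Dendritic cell genes (4 tested), fibroblast and smooth muscle genes (7) and endothelial genes (4) had median log2 changes of 0.02, -0.04 and -0.14, with 0 changed. Gp2, a receptor of the M cells that cover lymphoid follicles, gave 0.99 ± 0.64 and was brightest in knockout replicate 2, at 211. Its probe was well above background on 2 of 3 arrays in each genotype. Labelled epithelium carried its markers. Muc2, the goblet cell mucin, gave 36302, 32535 and 31386 in wild-type and 37208, 36622 and 37904 in knockout mice, without overlap. Epcam was not tested because 4 arrays were marked. With marked spots kept it gave 41455, 29000 and 29281 in wild-type and 27067, 25129 and 26978 in knockout mice, every knockout value lower. Of 8 tested epithelial genes 2 lay wholly higher in knockout and 1 wholly lower, against 5.56% and 12.5% of all features. Their median log2 change was -0.03.

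**Figure D4:**
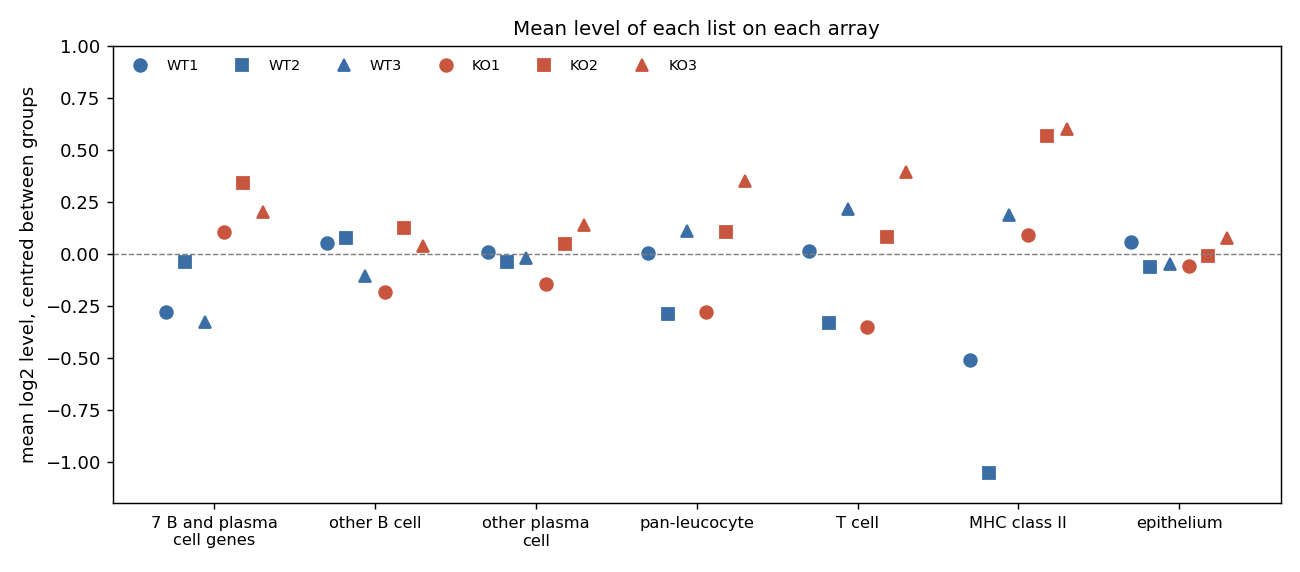
Mean log2 level of each list on each array, centred midway between the group means; blue, wild-type (WT); red, knockout (KO). The 7 B and plasma cell genes lie from -0.33 to -0.04 in wild-type and from 0.11 to 0.34 in knockout mice, and the other B cell, other plasma cell, leucocyte, T cell, class II and epithelial lists overlap. The 7 genes were chosen with earlier results of these data known, and Jchain has the largest difference among them.

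Among 11176 features with a gene symbol measured on all 6 arrays and well above background on each, those whose pattern over the 6 arrays was most like the mean of the 7 genes were Cmah, an enzyme that modifies sialic acid, at a Pearson correlation of 0.998, Suds3 at 0.984, Upf1 at 0.980, Pex5l at 0.978, D630041G03Rik at 0.975, Bcan at 0.972 and Rnps1 at 0.970. The 6 points share the arrays and their scaling, and with so many candidates these values are a description. Their log2 changes ranged from 0.11 for Rnps1, a splicing factor, to 1.37 ± 0.24 for Pex5l, and 0 of these 7 passed the adjusted threshold (limma). Cmah, at 1.14 ± 0.24, was close in size to Jchain. The 5 features most like Pigr were Eola1 at 0.995, Pam16 at 0.994, Med8 at 0.993, Nelfb at 0.991 and Srf at 0.989, whose log2 changes lay between -0.01 and 0.02. The correlation took in the difference between genotypes. Positive changes among features like the 7 genes, and changes near 0 among those like Pigr, thus follow from the choice.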

How the data were processed

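Arrays of 6 mice on 1 slide gave the values. Spot intensity in the deposited scanner output was already background-subtracted and detrended, by Feature Extraction 11.5.1.1 per the file headers and version 10.7 per the submitters' processing notes. A deposited series table holds the same linear intensity with no centring found. Its values matched the scanner's to within 0.01 log2 units in 99.7% of cases, and column medians were 231, 234 and 247 (wild-type) and 259, 228 and 241 (knockout). It served as an alternative.

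Of 62976 spots, 3671 controls were left out. The log2 processed intensity had the 75th percentile of its array subtracted, marked spots (non-uniform, population outlier or manual, 4.95% to 17.3% per array) were left out, saturated spots numbered 0, and spots of each of 56605 probes were averaged. Testing required signal well above background on 3 or more of the 6 arrays and 2 or more unmarked arrays per group, and the brightest tested probe stood for its gene. Symbols came from RefSeq (GRCm38.p6) by accession for 33767 probes; the array design names mm9, so gene coordinates are given only for RefSeq sequences. Scaled intensity multiplies the scaled value by the geometric mean of the 75th percentiles, 3251. Genotypes were compared with limma 3.58.1 in R 4.3.3 (lmFit and eBayes, two-sided, no covariate), adjusted by the Benjamini-Hochberg method over 27916 features at 0.05. The procedure was tested on simulated data. The number of arrays limits the precision.

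The 8 genes and all lists were chosen with earlier results of these data known. Named genes are the 8, the defining markers, list members past the threshold or up to 4 with the smallest unadjusted p, and the 8 and 5 features most like the group mean and Pigr. Genes named for being below background were chosen after their values were seen. A few genes that this rule names are not reported here. Alternatives covered scaling, background (normexp on the median signal with offset 50, as the mean signal was not used here), filters, marked spots, probe choice, variance model, array weights, slide column, animal number, the series table and 1 array left out; the second Pigr probe was added after seeing the data.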

Additional observations from a re-analysis of the deposited data

How the results depend on the processing

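The count of the 8 genes past the adjusted threshold was 0 under all 18 alternatives. The count of all features past it, 58, was 100 under normexp background correction, 35 with no filter on dim probes, 33 with probes well above background on all 6 arrays, 106 with trend and robust variance, 105 with array weights and 237 with slide column as a block. With 1 array left out it was between 22 and 116: 22, 28 and 38 without wild-type replicate 1, 2 and 3, and 30 and 116 without knockout replicate 2 and 3. The cause was not tested, and the fit with slide column as a block takes its difference from slide columns 1 and 2 only. The log2 change of Pigr, 0.00, turned to -0.013 under normexp, -0.019 with array weights, -0.061 with slide column as a block and -0.28 by its second probe, and lay between -0.071 and 0.048 with 1 array left out. That of Cd79a lay between -0.0081 and 0.59 with 1 array left out, and Cd79a was not tested when all 6 arrays had to be above background. Jchain lay between 0.73 and 1.41 (limma, adjusted p = 0.0728 to 0.528) and kept an unadjusted p under 0.05 in 18 of 18 alternatives, Blk in 10 and Pou2af1 in 8. Between 1 and 4 of the 8 genes reached that unadjusted level under the alternatives. Over the alternatives the median log2 change of the 8 genes lay between 0.20 and 0.44, that of the other B cell genes between -0.16 and 0.05 and that of the genes that attract or sustain antibody-secreting cells between -0.16 and 0.09. The median of all features ranged from -0.10 to -0.01. Cd79a, Ms4a1, Irf4, Prkcb, Gp2, C1qc and Tgfb2 were not well above background on all arrays.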
